A study of Mus musculus with 4 samples.

Results

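The ADAM and ADAMTS genes measured here encode secreted and membrane-anchored metalloproteases and their relatives. They were taken as all genes of the matrices whose symbol begins with Adam, Adamts or Adamtsl followed by a number, and as members those with at least 20 unique molecular identifiers (UMIs, counted RNA molecules) summed over 4 mouse liver sections. Of 19465 genes in the matrices, 57 carried such a symbol and 37 passed the minimum: 16 ADAM, 16 ADAMTS and 5 ADAMTSL genes. The remaining 20 lay under the minimum, and 3 of these, Adam34, Adam26a and Adam7, had no UMI in any section. Adam5 with 20 UMIs and Adamts8 with 25 lay just inside the minimum, and Adam6b with 12 and Adam2 with 10 just outside it. The name protease does not cover all of them, since the 5 ADAMTSL genes encode proteins without a protease domain and Adam11, Adam22 and Adam23 encode proteins without an active catalytic site.

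Spatial transcriptomes of formalin-fixed liver were recorded on Visium arrays, on which each spot covers a small region that can hold several cells. There were 4 sections, each of a separate mouse labelled male and aged 5 months, and all mice had received tamoxifen at 75 mg/kg on 5 days. The healthy group (n = 1) was an HK2fl/fl mouse given olive oil. The fibrotic group (n = 2) held HK2fl/fl mice given carbon tetrachloride (CCl4), which injures hepatocytes around the central vein and causes fibrosis when repeated. The Hk2-deleted group (n = 1) was a PDGFRBcreERT2/Hk2fl/fl mouse on the same CCl4 course. In it tamoxifen activates a Cre recombinase driven by Pdgfrb, a gene of stellate cells and of other mural cells, so that the glycolytic enzyme hexokinase 2 is removed there. The design text gives the CCl4 course as 2 injections a week for 6 weeks, at 1 uL per g of body weight per the treatment protocol, which itself names 4 or 6 weeks.

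ADAM proteins sit in the cell membrane and many of them shed the outer parts of other membrane proteins, among them Notch receptors, growth factor precursors and tumour necrosis factor. ADAMTS proteins are secreted and act on the extracellular matrix: some remove the amino-terminal propeptide of fibrillar procollagens, others cleave large proteoglycans such as versican and aggrecan, and ADAMTS13 cuts von Willebrand factor. ADAMTSL proteins bind microfibrils. In liver, ADAMTS13 is known to come largely from stellate cells, the pericytes of the sinusoid that turn into collagen-producing myofibroblasts in fibrosis.

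Sections held 2577 to 4134 spots and 40585039 to 67479047 UMIs, with medians of 13665 to 15588 UMIs per spot. Before any result, 1 section stood apart. Fibrotic replicate 1 had 0.51 normalised counts per 1000000 UMIs (CPM) of the Y-linked gene Eif2s3y against 58.0 to 83.9 in the other 3 sections. This goes against its label as male. For the members, each comparison is also given without this section, at least in part. Comparisons of other named genes are not. Hk2 was at 2.22 CPM in the healthy, 4.34 and 4.02 in the fibrotic and 3.21 in the Hk2-deleted section, and whole sections also count cells without Cre. Since the sources used here do not say where in Hk2 the probes bind, these values do not check the deletion if the probes bind outside the removed part. Spots at or next to one with UMIs of the mesothelial genes Msln or Upk3b, called surface spots here, made up 12.8% of the healthy, 33.3% and 2.29% of the fibrotic and 31.0% of the Hk2-deleted section. Barcodes mark array positions, and 4386 of the 4848 barcodes occurred in at least 2 sections. Levels below are CPM scaled by trimmed means of M values (TMM). Whole sections and each way of splitting spots were scaled apart, so levels are not to be compared between these sets. Unscaled CPM ratios were higher by 0.33 on the log2 scale for CCl4 against healthy.

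The members' share of all UMIs was 0.0235% in healthy liver, 0.0490% and 0.0397% in fibrotic replicates 1 and 2, and 0.0458% with Hk2 deleted. Values that follow keep this order of sections. Against healthy, 12 of the 36 members tested rose in the fibrotic sections and 0 fell (edgeR's quasi-likelihood test, Benjamini-Hochberg adjusted p below 0.05, termed called here). The background was 9.64% of 14125 genes called higher and 4.01% called lower. The members' median log2 fold change was 0.73, beside 0.0042 over all genes tested. At an unadjusted p below 0.05, 16 members were higher and 0 lower in the edgeR test, and DESeq2 called 8 higher and 0 lower, beside 5.16% and 2.09% of all genes. The only replication came from the 2 fibrotic sections, with 1 residual degree of freedom. The edgeR test draws each gene's spread toward a trend over all genes, so its p-values rest largely on spread shared across genes. The healthy and Hk2-deleted groups, of 1 section each, were taken to vary like the fibrotic sections. In sums over spots, fewer cells of a type and less RNA per cell cannot be told apart.

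**Figure D1:**
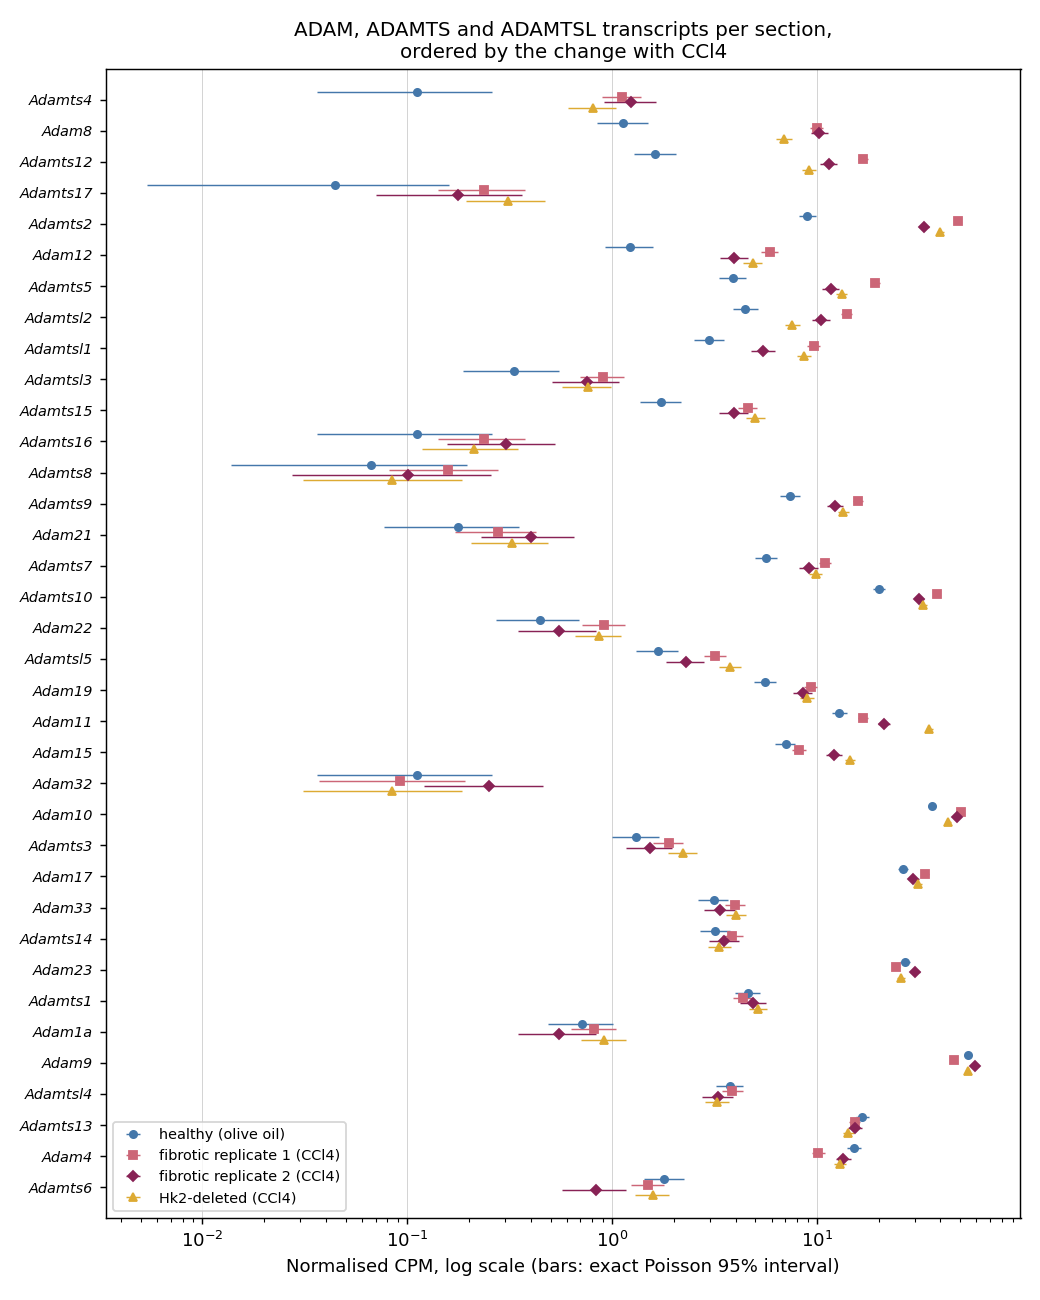
Levels of the 36 members tested, in normalised CPM on a log axis, in each of the 4 sections; points are sections, bars exact Poisson 95% intervals, and genes are ordered by the fitted change with CCl4. The CCl4 sections lie to the right of the healthy one in the upper rows, as for Adamts12 (1.62 in healthy, 9.18 to 16.7 in the CCl4 sections), and close to it in the lower rows, as for Adam9 (54.3 against 46.6 to 59.2).

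Among the procollagen N-propeptidases, Adamts2, the main enzyme that removes the amino propeptide of type I procollagen, lay at 8.98 CPM in healthy, 48.6 and 33.4 in fibrotic liver and 39.9 with Hk2 deleted. All 3 CCl4 sections were above the healthy one with intervals that did not overlap it. The fitted log2 fold change was 2.19 ± 0.24 (SE; edgeR adjusted p 3.8e-06), a 4.57-fold rise. Adamts14, which acts on the same substrate, lay at 3.18, 3.87, 3.52 and 3.34 CPM in the same order, with a log2 fold change of 0.22 ± 0.33 (adjusted p 0.713). Adamts3, which acts on type II procollagen and on the activation of the lymphatic growth factor VEGF-C, lay at 1.31, 1.89, 1.53 and 2.21 CPM (log2 fold change 0.39 ± 0.44, adjusted p 0.608). Of these 3 enzymes only Adamts2 was called, beside 9.64% of all genes called higher. Whether the Adamts2 change differs from those of the other 2 was not tested.

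The promoter windows of Adamts2 and Adamts14, which share a substrate and differed in their call, are printed with that of Adamts12, a member with a larger called rise and no such box. Each is the 250 bases before the RefSeq gene start on GRCm38.p6, 5′ to 3′ on the gene's strand, with the letters of a GC box (GGGCGG, or CCGCCC on the other strand) in capitals.
Adamts2, chr11:50601835-50602084, plus strand: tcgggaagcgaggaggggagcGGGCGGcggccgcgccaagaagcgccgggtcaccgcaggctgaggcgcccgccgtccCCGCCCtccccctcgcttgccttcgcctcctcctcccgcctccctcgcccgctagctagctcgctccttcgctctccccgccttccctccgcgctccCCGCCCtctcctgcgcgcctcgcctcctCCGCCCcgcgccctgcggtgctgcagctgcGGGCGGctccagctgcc
Adamts14, chr10:61273420-61273669, minus strand: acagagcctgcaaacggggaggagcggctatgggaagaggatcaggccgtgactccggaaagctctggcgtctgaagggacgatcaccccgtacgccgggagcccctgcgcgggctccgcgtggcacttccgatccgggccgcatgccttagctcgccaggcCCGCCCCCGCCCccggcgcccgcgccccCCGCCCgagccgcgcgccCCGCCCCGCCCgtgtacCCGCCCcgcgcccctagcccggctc
Adamts12, chr15:11064523-11064772, plus strand: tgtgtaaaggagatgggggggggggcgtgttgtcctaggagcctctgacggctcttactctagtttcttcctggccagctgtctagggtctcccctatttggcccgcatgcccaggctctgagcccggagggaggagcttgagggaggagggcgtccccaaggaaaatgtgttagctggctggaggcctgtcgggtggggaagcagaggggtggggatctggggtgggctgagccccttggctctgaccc
The Adamts2 window held 5 matches of the GC box and the Adamts14 window 6, overlapping matches counted, while the Adamts12 window held 0. Of 32851 RefSeq windows of this length, 32.7% held a GC box on either strand, as did 13 of the 21 members that had a window. The AP-1 letters TGANTCA were in 6.75% of all windows and in 1 member, Adam19; the TEAD letters GGAATG in 12.6% and in 2 members, Adam19 and Adamts13; and the TATA box letters TATAAA in 12.4% and in 2 members, Adamts1 and Adamtsl2. The letters of no motif contain those of another, and a match is a description of the sequence only.

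Among the proteoglycanases, 4 of 6 rose and 0 fell, beside 9.64% of all genes called higher and 4.01% lower. Adamts5, an aggrecanase that also cleaves versican, lay at 3.89 CPM in healthy, 19.3 and 11.7 in the fibrotic and 13.2 in the Hk2-deleted section (log2 fold change 2.00 ± 0.28, adjusted p 6e-05). Adamts4, the other main aggrecanase, was scarce, with 5 UMIs in the healthy section against 85 and 49 in the fibrotic and 57 in the Hk2-deleted section, and rose by 3.38 ± 0.73 (adjusted p 0.00377). Adamts15 went from 1.73 to 4.58 and 3.92 CPM (log2 fold change 1.30 ± 0.34) and Adamts9 from 7.40 to 15.9 and 12.3 CPM (0.93 ± 0.23). Both of these are versican-cleaving enzymes, and their fibrotic sections did not overlap the healthy one. Adamts1, another versican-cleaving enzyme, was level at 4.60 CPM in healthy and 4.35, 4.87 and 5.17 CPM in the CCl4 sections (0.00 ± 0.28, adjusted p 0.997). Adamts8, with 25 UMIs in all, was not called.

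The COMP proteases, named for their cleavage of cartilage oligomeric matrix protein, both rose, beside 9.64% of all genes called higher. Adamts12 lay at 1.62 CPM in healthy, 16.7 and 11.4 in the fibrotic and 9.18 in the Hk2-deleted section, an 8.68-fold rise (log2 3.12 ± 0.30, adjusted p 7.2e-07). It was found in 2.25% of healthy spots and in 24.8%, 15.5% and 14.3% of the spots of these CCl4 sections. Adamts7 rose less in size, from 5.67 to 10.9 and 9.09 CPM, with 9.83 in the Hk2-deleted section (log2 0.82 ± 0.24, adjusted p 0.0241).

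Of the 3 fibrillin-related members, only Adamts10, which binds the microfibril protein fibrillin-1, was called, beside 9.64% of all genes called higher. It lay at 20.04 CPM in healthy, 38.6 and 31.6 in the fibrotic and 32.9 in the Hk2-deleted section (log2 0.81 ± 0.20, adjusted p 0.00873). Adamts17 had 2 UMIs in the healthy section and 18, 7 and 22 in the CCl4 sections, and its log2 fold change of 2.19 ± 1.20 did not pass (adjusted p 0.248). Adamts6 lay at 1.80 CPM in healthy and 1.49, 0.83 and 1.58 CPM in the CCl4 sections (-0.61 ± 0.48, adjusted p 0.434).

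Among the microfibril-binding ADAMTS-like genes, 2 of 5 rose, beside 9.64% of all genes called higher. Adamtsl2, which binds fibrillin-1 and a latent TGF-beta binding protein, lay at 4.47 CPM in healthy, 13.9 and 10.5 in the fibrotic and 7.58 in the Hk2-deleted section (log2 1.45 ± 0.25, adjusted p 0.00056). Adamtsl1 lay at 2.98 CPM in healthy, 9.63 and 5.48 in the fibrotic and 8.66 in the Hk2-deleted section (1.35 ± 0.31, adjusted p 0.00625). Its fibrotic replicates differed from each other more than those of Adamtsl2, and without fibrotic replicate 1 the Adamtsl1 change was 0.88, with no test possible. Adamtsl3, Adamtsl4 and Adamtsl5 were not called, at 1.31, -0.07 and 0.72.

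Adamts13, the von Willebrand factor protease, was not called in whole sections. It lay at 16.7 CPM in healthy, 15.3 and 15.4 in the fibrotic and 14.2 in the Hk2-deleted section (log2 -0.12 ± 0.19, edgeR adjusted p 0.725). Of the stellate and fibroblast markers 10 of 12 rose, beside 9.64% of all genes. Their summed level went from 410.4 CPM in healthy to 1041 and 836 CPM in the fibrotic sections. The substrate gene of Adamts13, Vwf, was not called either (0.24 ± 0.21, edgeR adjusted p 0.5).

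Of the 8 ADAM sheddases, 2 rose, beside 9.64% of all genes called higher. Adam8, a sheddase of leukocytes, lay at 1.13 CPM in healthy, 9.97 and 10.3 in the fibrotic and 6.93 in the Hk2-deleted section, an 8.92-fold rise (log2 3.16 ± 0.29, adjusted p 5.8e-07). Adam12, which activated fibroblasts and stellate cells express, lay at 1.22 CPM in healthy, 5.87 and 3.94 in the fibrotic and 4.84 in the Hk2-deleted section (log2 2.01 ± 0.37, adjusted p 0.00097). In both genes the CCl4 sections stood clear of the healthy one.

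The broadly expressed sheddases were not called. Adam10, the Notch sheddase, lay at 36.4 CPM in healthy and 50.5, 48.0 and 43.7 in the CCl4 sections (0.44 ± 0.20, adjusted p 0.171). Adam17, the tumour necrosis factor converting enzyme, lay at 26.3 CPM against 33.7, 29.5 and 31.1 (0.27 ± 0.19, adjusted p 0.381). Adam9 lay at 54.3 CPM in healthy, inside the range of 46.6 to 59.2 of the CCl4 sections (-0.04 ± 0.22, adjusted p 0.927). Adam19, a neuregulin sheddase, missed the threshold at 0.68 ± 0.24 (adjusted p 0.062), and Adam15 and Adam33 had changes of 0.52 and 0.23.

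The nervous system ADAMs without a catalytic site and the ADAMs of the germ line were not called with CCl4. Adam23, a receptor of the synaptic protein LGI1, lay at 26.8 CPM in healthy and at 24.3, 30.0 and 25.6 in the CCl4 sections (0.02 ± 0.19). Adam11 lay at 12.9 CPM in healthy, 16.7 and 21.2 in the fibrotic and 35.4 in the Hk2-deleted section (0.55 ± 0.20, adjusted p 0.0696). Adam4, whose mouse gene is best known from testis, was detected at 15.2 CPM in healthy and 10.2, 13.4 and 13.0 in the CCl4 sections (-0.37 ± 0.21, adjusted p 0.275).

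On GRCm38.p6, 6 pairs of members lay within 150 kb of each other, and in each of the 3 pairs that held a called member the neighbour was not called. Adamts5 lies 55.0 kb from Adamts1 on chromosome 16, and their log2 fold changes were 2.00 and 0.00. Adamtsl2 lies 69.7 kb from Adamts13 on chromosome 2, with changes of 1.45 and -0.12. Adamts15 lies 20.1 kb from Adamts8 on chromosome 9, with changes of 1.30 (called) and 0.99 (not called, with 25 UMIs).

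Of the 12 members called, 8 were also called with DESeq2 and 4 were not: Adamts7, Adamts10, Adamts15 and Adamts9 had DESeq2 adjusted p of 0.165, 0.055, 0.0754 and 0.0719. Without fibrotic replicate 1 the other 11 changes besides Adamtsl1 lay between 0.66 and 3.44, all upward and without a test. When the CCl4 group was made of fibrotic replicate 2 and the section with Hk2 deleted, 15 members rose, the added ones being Adam11, Adam15 and Adam19, beside 8.59% of all genes higher and 4.95% lower. With all 3 CCl4 sections as 1 group 12 rose, with Adam19 in place of Adamtsl2 (adjusted p 0.051), beside 9.32% and 5.64%. Without the spots richest in collagen transcripts, the 10% of each section used further on, these 12 genes were called again, with Adamts2 at 2.18 and Adamts12 at 3.01, beside 7.44% and 2.91% of all genes.

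Markers of other cell types moved with CCl4 as well. In whole sections 9 of 9 neutrophil, 7 of 14 macrophage, 6 of 10 cholangiocyte and 5 of 12 lymphocyte markers rose, with 0 lower in each list. Of all genes 9.64% were higher and 4.01% lower. The summed neutrophil level was 21.5 CPM in healthy, with Mpo at 0, and 544, 1220 and 487 CPM in fibrotic replicate 1, fibrotic replicate 2 and the Hk2-deleted section. Summed hepatocyte markers went from 254279 CPM to between 112405 and 160070 CPM. The part of these shifts in the members' changes was not tested.

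The liver lobule runs from the portal vein to the central vein, and spots were scored for position by 9 measured pericentral landmark genes minus 12 periportal ones and split into 3 equal parts, of which the outer ones are called the pericentral and the periportal zone. Over the 4 sections, 9 of 31 members tested were higher in the pericentral zone and 2 in the periportal zone, beside 6.72% of 13079 genes called higher and 5.78% lower. The pericentral ones were Adam8, Adamts5, Adamts15, Adam12, Adamts2, Adamts14, Adam19, Adamts10 and Adam15, and the periportal ones Adam23 and Adam11. The median log2 difference of the members was 0.35, beside 5.9e-04 over all genes.

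**Figure D2:**
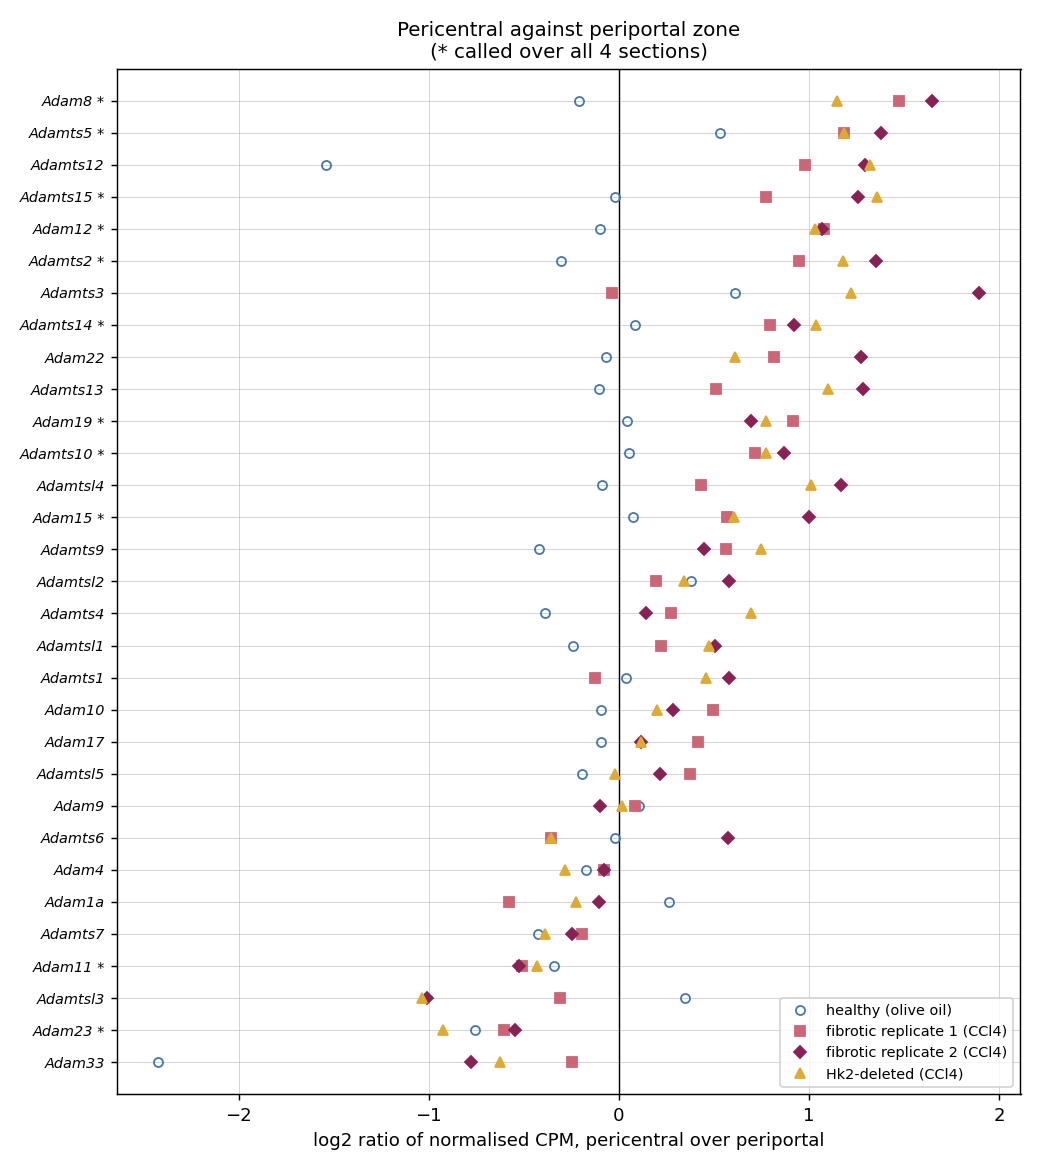
Log2 ratio of normalised CPM in the pericentral over the periportal zone, for the 31 members tested, with 1 point per section (open circles healthy, filled symbols the 3 CCl4 sections) and stars at genes called over the 4 sections. The CCl4 points of Adamts2 lie to the right of 0 and its healthy point to the left, with -0.31 in healthy and 0.95 to 1.35 in the CCl4 sections; Adam23 and Adam11 lie left of 0 in all 4 sections.

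The healthy and CCl4 sections shared this pattern only in part. Adamts2 had 8.31 CPM in the pericentral and 10.3 in the periportal zone of the healthy section, but 61.5 against 31.9 and 50.5 against 19.7 in the fibrotic sections and 58.4 against 25.8 in the Hk2-deleted section. Adamts12 had 0.75 against 2.17 CPM in healthy and 21.6 against 10.97, 17.04 against 6.95 and 14.0 against 5.61 in the CCl4 sections. Both genes thus had lower values pericentrally in the healthy section and higher ones in all 3 CCl4 sections. The healthy values are of 1 section and rest on few UMIs, 100 against 189 of Adamts2 and 9 against 40 of Adamts12. Tested as an interaction, the signed zone difference, pericentral minus periportal, was higher in the CCl4 sections for 9 of 32 members and lower for 0, beside 8.48% of 13341 genes higher and 10.4% lower.

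The 9 were Adamts12 (difference of log2 differences 2.69 ± 0.47, edgeR adjusted p 0.00081), Adam33 (1.92), Adam8 (1.60), Adamts2 (1.43 ± 0.21, adjusted p 0.00023), Adamts9 (1.02), Adamts13 (1.02), Adam19 (0.76), Adamts10 (0.72) and Adam10 (0.42). Without fibrotic replicate 1 the 9 differences were all upward, from 0.33 in Adam10 and 0.70 in Adam19 to 2.84 in Adamts12. Adam10 and Adam19 were then not called. With DESeq2 on all sections the count was 4: Adamts10, Adamts12, Adamts13 and Adamts2, beside 2.95% of all genes higher and 3.81% lower. Without the 10% of spots richest in collagen it was 6, beside 5.55% and 5.62%: Adam33, Adamts10, Adamts12, Adamts13, Adamts2 and Adamts9.

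Adamts13 was among them although its whole-section level did not pass. It had 15.7 against 16.9 CPM (pericentral against periportal) in healthy, and 17.9 against 12.6, 22.8 against 9.39 and 20.2 against 9.43 in fibrotic replicate 1, fibrotic replicate 2 and the Hk2-deleted section. All 3 CCl4 sections lay above the healthy one in the pericentral zone and below it in the periportal zone. Adam33, an ADAM known from smooth muscle and fibroblasts, stood out in the other direction in the healthy section, with 0.91 against 4.89 CPM, and had 3.82 against 4.53, 1.98 against 3.39 and 3.11 against 4.80 CPM in the CCl4 sections, so that its periportal excess was smaller there. Summed smooth muscle markers were 16.2 CPM pericentrally and 39.1 periportally in the healthy section, with Myocd at 0 in the pericentral zone; their part in the Adam33 difference was not tested.

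Adam23 was periportal in every section. It had 17.8 against 30.1 CPM in healthy, 19.5 against 29.7 and 22.6 against 33.0 in the fibrotic and 17.04 against 32.3 in the Hk2-deleted section (log2 -0.71 ± 0.08, adjusted p 0.00248). Adam11 followed with 9.97 against 12.6, 14.2 against 20.2, 17.04 against 24.6 and 30.3 against 40.8 CPM (-0.46 ± 0.07, adjusted p 0.00595). Neither had an interaction with CCl4 that passed (0.05 ± 0.16 and -0.14 ± 0.17). With a zone score from Cyp2e1 and Cyp2f2 alone, Adam23 was still called and Adam11 was not.

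Adam8 and Adamts5 had the largest fitted pericentral differences among the members, 1.27 ± 0.20 and 1.14 ± 0.12. Adamts5 was higher pericentrally in all 4 sections, with 4.40 against 3.04 CPM in healthy and 26.2 against 11.6, 17.3 against 6.63 and 20.8 against 9.14 CPM in fibrotic replicate 1, fibrotic replicate 2 and the Hk2-deleted section. Adam8 was close between zones in healthy (1.08 against 1.25 CPM) and higher pericentrally in the CCl4 sections (14.1 against 5.07, 14.8 against 4.74 and 10.3 against 4.67). Adamts12 missed the threshold over the 4 sections (0.97 ± 0.27, adjusted p 0.0551). Adam9, Adam10 and Adam17 differed little between zones, with fitted values of 0.02, 0.23 and 0.15, none called.

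These zone counts rest on the zone score and on which sections enter. With the score from Cyp2e1 and Cyp2f2 alone, Adam12, Adamts15 and Adamts5 were still called pericentral. Adam8, Adamts2, Adamts14, Adam19, Adamts10 and Adam15 were not, and the share of all genes with that score is not given here. In the 3 CCl4 sections alone, 18 of 31 members were higher pericentrally and 4 periportally (Adam23, Adam11, Adam33 and Adamts7), beside 20.9% and 22% of all genes. Leaving out fibrotic replicate 1, fibrotic replicate 2 or the Hk2-deleted section left 1 member in each direction, Adamts5 and Adam23. The sizes moved less than the calls: over these 3 settings Adam8 was at 1.12 to 1.30, Adam12 at 0.85 to 0.90 and Adamts2 at 0.75 to 0.87, beside 1.27, 0.95 and 0.91 with all sections. All genes then had 1.13% higher and 1.02% lower without fibrotic replicate 1, 1.05% and 0.93% without fibrotic replicate 2, and 0.932% and 0.916% without the Hk2-deleted section. In the healthy section the pericentral zone was shallower, with a median of 11705 UMIs per spot against 20148 in the periportal zone. Stellate and fibroblast markers moved with the zones, 6 of 12 higher and 0 lower, beside 6.72% and 5.78% of all genes. Their sum was 413.2 CPM pericentrally and 385.5 periportally in healthy, and 1140 to 1330 against 479.0 to 689.0 CPM in the CCl4 sections. Their part in the zone differences was not tested.

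Collagen-high spots were, in each section, the 10% in which UMIs of Col1a1, Col1a2 and Col3a1 took the largest share. Over the 3 CCl4 sections, 21 of 32 members were higher in them than in all other spots and 2 were lower, beside 21.7% of 13493 genes higher and 22% lower. The members' median log2 difference was 0.65, beside 0.015 over all genes. By role, all 3 procollagen N-propeptidases, 4 of 5 proteoglycanases tested, 7 of 8 sheddases and 3 of 5 ADAMTS-like genes were higher, and the 2 lower ones were Adam23 and Adam11. DESeq2 called 15 higher and the same 2 lower, beside 14.1% and 16.8% of all genes; by role these were 2 N-propeptidases, 3 proteoglycanases, 4 sheddases and 3 ADAMTS-like genes among others. The 6 called by edgeR alone were Adam10, Adam17, Adam22, Adam33, Adamts4 and Adamts14, with DESeq2 adjusted p of 0.0727 to 0.175.

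**Figure D3:**
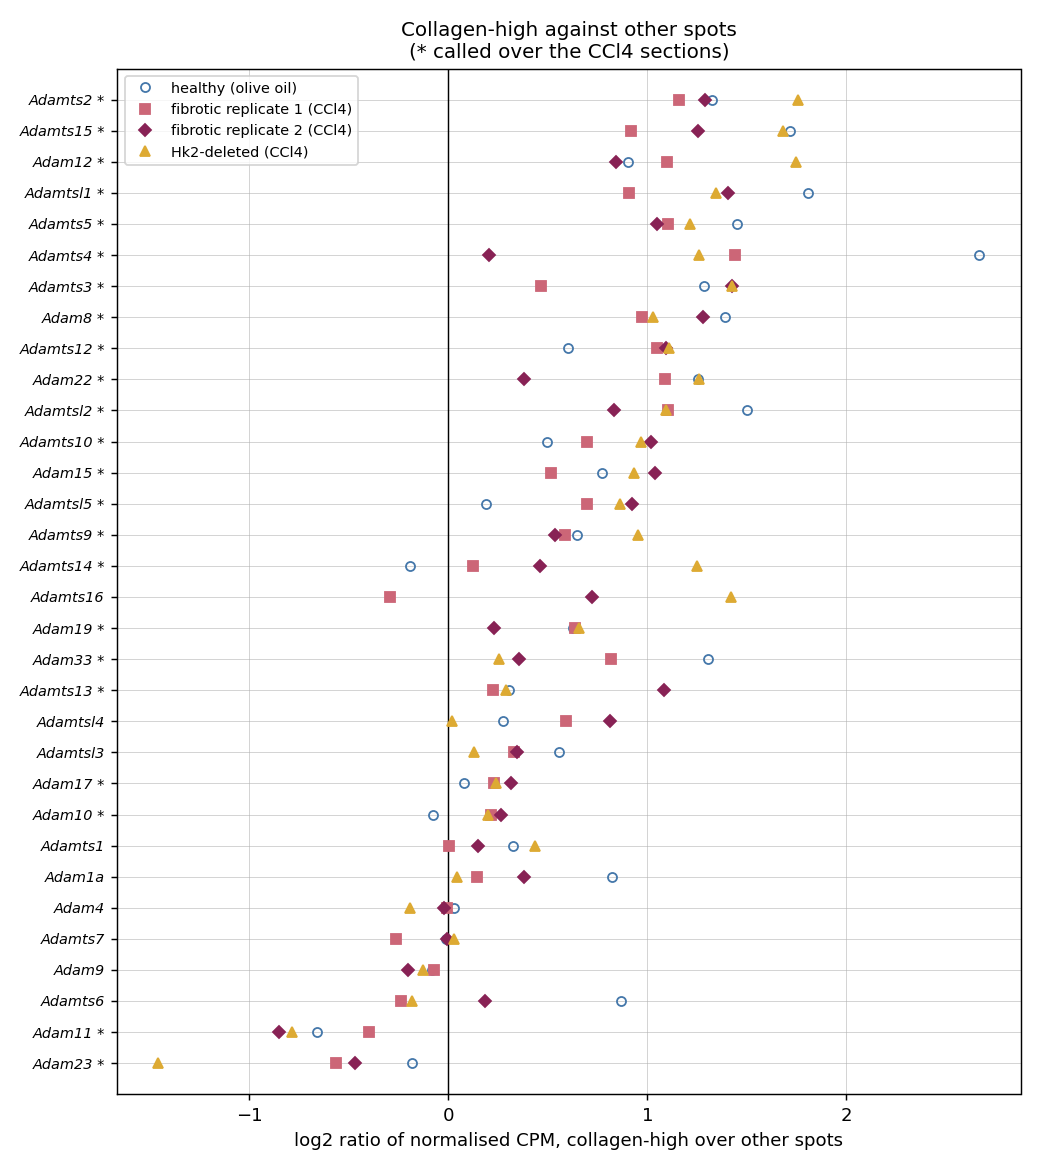
Log2 ratio of normalised CPM in collagen-high over other spots for the 32 members tested, with 1 point per section; stars mark genes called over the 3 CCl4 sections, and the healthy section (open circles) was not in the test. Adamts2, Adamts15, Adam12 and Adamts5 lie right of 0 in all 4 sections, Adam9 and Adamts7 lie near 0, and Adam23 lies farthest to the left in the Hk2-deleted section (-1.46).

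Adamts2 had the largest fitted difference of the called members, 1.42 ± 0.09 (adjusted p 7.5e-08). Its levels in collagen-high against other spots were 102 against 45.6 CPM and 76.5 against 31.2 CPM in the fibrotic sections and 115 against 34.1 CPM in the Hk2-deleted section. In the healthy section they were 20.7 against 8.27 CPM, a ratio of similar size at lower levels. Collagen-high spots held 25.5% and 22.9% of all Adamts2 UMIs in the fibrotic sections, 31.5% in the Hk2-deleted and 20.8% in the healthy section, against 11.2%, 8.69%, 9.56% and 8.65% of the UMIs of all genes. At least 1 Adamts2 UMI was seen in 84.5%, 65.5% and 74.9% of the collagen-high spots of these CCl4 sections and in 20.3% of the healthy ones.

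**Figure D4:**
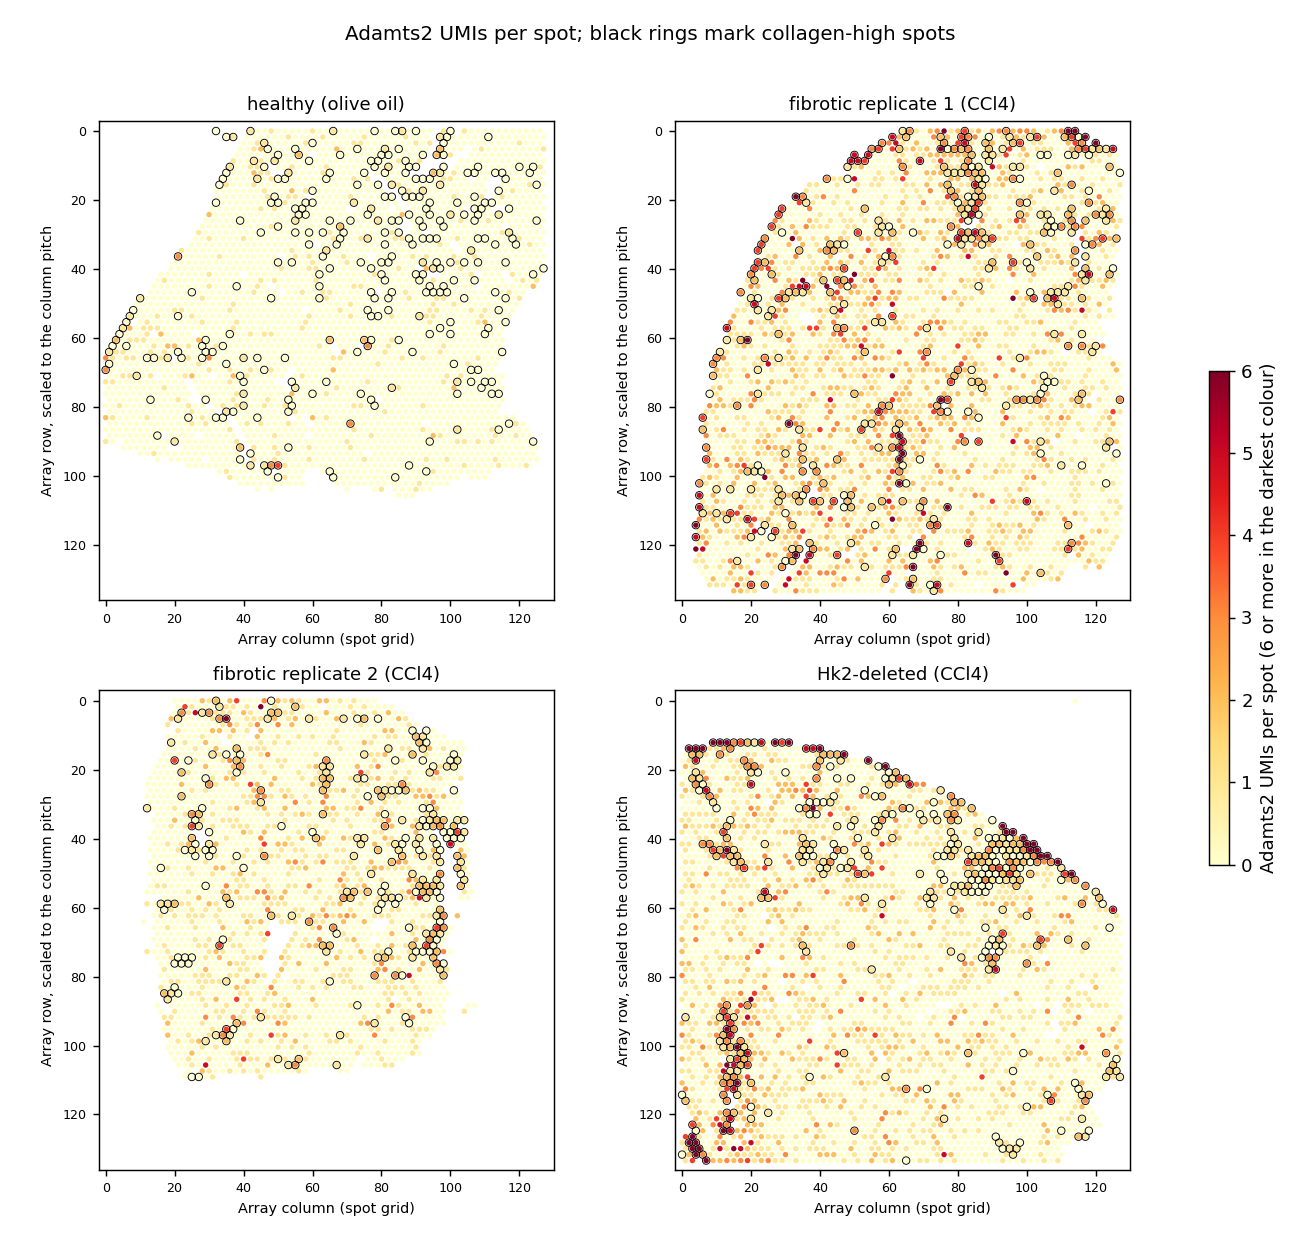
Spots of the 4 sections at their array positions, coloured by Adamts2 UMIs (0 to 6 or more), with black rings at collagen-high spots. In the CCl4 sections dark spots lie in ringed strands inside the tissue and, in fibrotic replicate 1 and the Hk2-deleted section, along the tissue edge; the healthy section reached at most 4 UMIs in a spot.

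Next in size were Adamts15 (1.31 ± 0.17), Adam12 (1.30 ± 0.17), Adamtsl1 (1.19 ± 0.13) and Adamts5 (1.14 ± 0.08). Adam12 had 11.9 against 5.56 CPM in fibrotic replicate 1, 7.04 against 3.93 in replicate 2 and 13.9 against 4.14 in the Hk2-deleted section. Adam8 (1.09 ± 0.11), Adamts12 (1.08 ± 0.09) and Adamtsl2 (1.04 ± 0.10) had fitted differences of like size and were higher in each of the 3 CCl4 sections. Adamts10 (0.89 ± 0.08), Adam15 (0.84 ± 0.11) and Adamts9 (0.72 ± 0.10) followed.

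Adam10 and Adam17 had small differences, 0.23 ± 0.06 (edgeR adjusted p 0.00712, DESeq2 0.0738) and 0.26 ± 0.07 (edgeR adjusted p 0.00629, DESeq2 0.0727). Adam17 lay at 42.1 against 35.9, 38.7 against 31.2 and 39.5 against 33.4 CPM in fibrotic replicate 1, fibrotic replicate 2 and the Hk2-deleted section. Adam9 was slightly lower in each of these sections and did not pass (-0.12 ± 0.06, adjusted p 0.137). Adamts7, which had risen with CCl4, did not follow collagen, with 10.2 against 12.2, 9.81 against 9.85 and 10.96 against 10.8 CPM (-0.09 ± 0.12, adjusted p 0.577).

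With spots ranked by collagen share and cut into deciles, Adamts2 climbed over the whole range in the CCl4 sections and not only at its end. In fibrotic replicate 1 it had 21.2 CPM in the lowest decile, 37.2 in the fifth, 65.5 in the ninth and 96.7 in the highest. In the Hk2-deleted section the same deciles had 13.1, 31.4, 53.3 and 111 CPM, and in fibrotic replicate 2 they had 10.9, 24.2, 52.7 and 71.9 CPM. The highest decile of the healthy section had 19.2 CPM, which lay below the lowest decile of fibrotic replicate 1, with overlapping intervals, and above those of the other CCl4 sections.

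**Figure D5:**
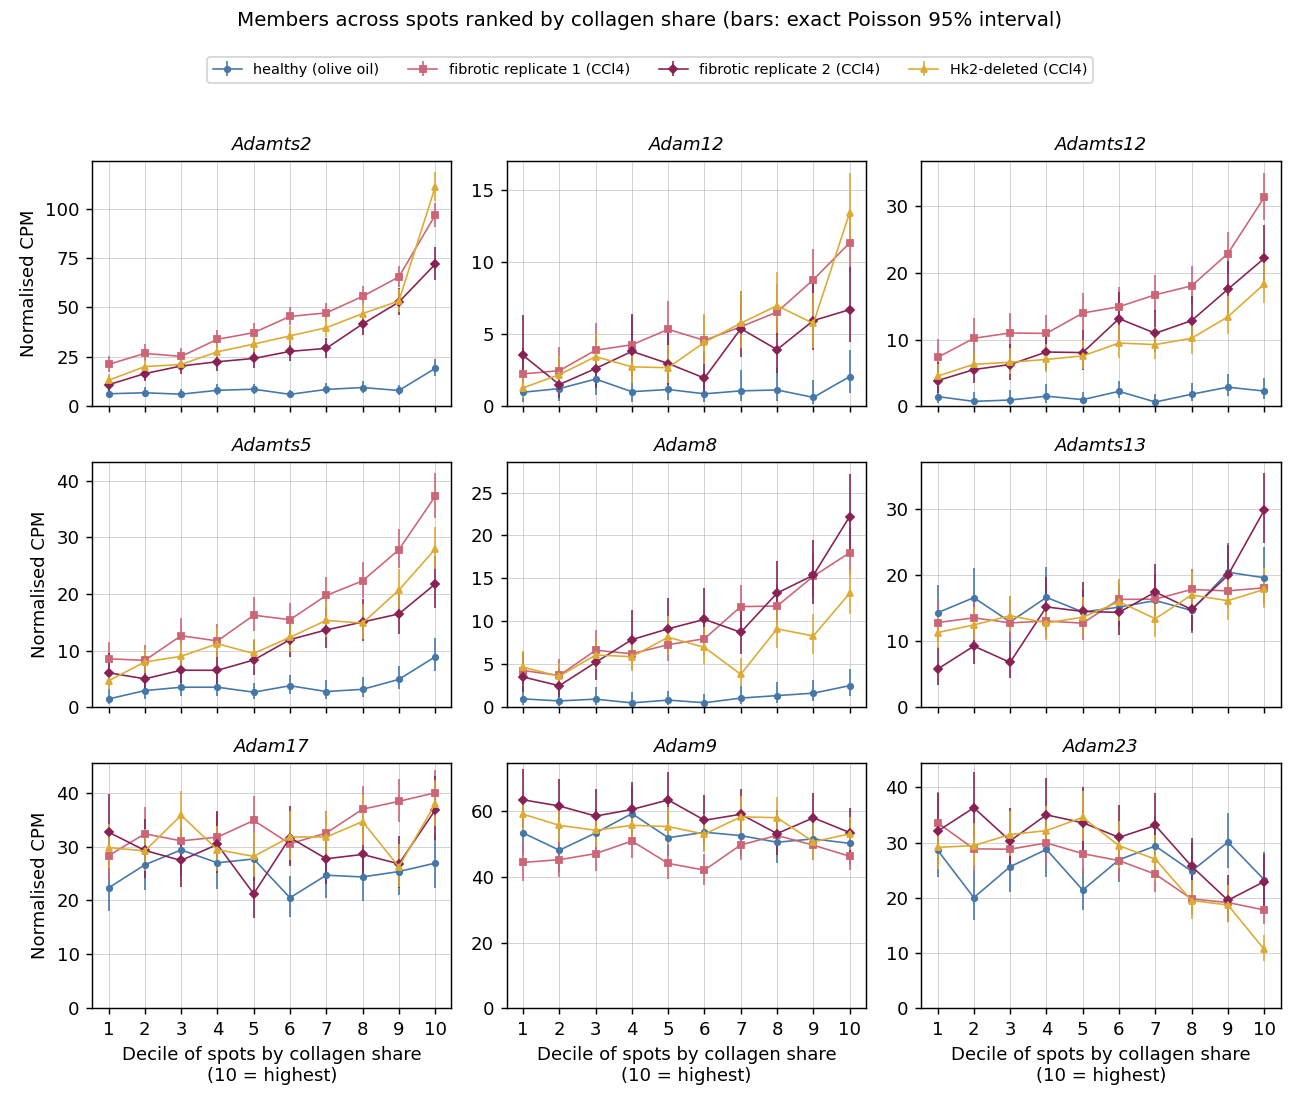
Normalised CPM of 9 members in deciles of spots ranked by collagen share, by section, with exact Poisson 95% intervals. Adamts2, Adam12, Adamts12, Adamts5 and Adam8 climb toward the highest decile in the CCl4 sections, Adam9 stays between 42.1 and 63.5 CPM in the CCl4 sections, and Adam23 is lowest at the collagen-rich end.

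Adamts12 went from 7.33 CPM in the lowest to 31.4 in the highest decile of fibrotic replicate 1, from 3.85 to 22.2 in fibrotic replicate 2 and from 4.52 to 18.4 in the Hk2-deleted section. In the healthy section it was 1.46 in the lowest and 2.28 in the highest decile, with overlapping intervals. Adamts13 went from 5.77 to 29.9 CPM in fibrotic replicate 2 but only from 12.8 to 18.1 and from 11.3 to 17.9 CPM in the other CCl4 sections. The collagen-high difference of Adamts13 (0.50 ± 0.13, adjusted p 0.00777) was therefore largest in fibrotic replicate 2 and was 0.24 without it (adjusted p 0.0784).

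Other values or calls changed when 1 section was left out. Adamts14 (0.65 ± 0.22) fell to 0.24 without the Hk2-deleted section (adjusted p 0.452) and was 0.98 without fibrotic replicate 1. Adam33 (0.52 ± 0.19) was 0.32 without fibrotic replicate 1 (adjusted p 0.354). Adam23, lower in collagen-high spots by 0.80 ± 0.14 on the log2 scale, was at -0.53 without the Hk2-deleted section and was still called (adjusted p 6.6e-05). Adamts4, whose difference was 1.11 ± 0.31, was at 0.86 without fibrotic replicate 1 (adjusted p 0.117). The call of Adam22 was lost at a like size, from 1.06 to 1.06 without fibrotic replicate 1 (adjusted p 0.0664) and to 0.93 without the Hk2-deleted section (adjusted p 0.0735), and that of Adam10 at 0.19 without fibrotic replicate 2 (adjusted p 0.0612).

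Collagen-high spots differed from the rest in more than collagen. In the CCl4 sections 69.7% to 81.8% of them lay in the pericentral zone, against 41.5% in healthy, and 49.2%, 2.33% and 66.1% of those of fibrotic replicate 1, fibrotic replicate 2 and the Hk2-deleted section were surface spots. Within the pericentral zone 14 members were called higher, Adamts2 at 1.03 among them, beside 15.4% of all genes higher and 16.4% lower. Without surface spots 17 were, with Adamts2 at 1.48, beside 16.5% and 18.6%. In the periportal zone, a comparison added after seeing the data, which held 3.49% to 8.55% of the collagen-high spots of the CCl4 sections, 5 were higher and 0 lower: Adamts2 (1.96), Adam33 (1.95), Adamts12 (1.70), Adamts5 and Adamtsl2, beside 3.49% of all genes higher and 4.9% lower. In the healthy section the split rests on few molecules, since its lowest collagen-high spot had a collagen share of 0.0167%.

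All 12 stellate and fibroblast, 9 of 9 neutrophil, 9 of 12 lymphocyte, 8 of 14 macrophage, 7 of 7 smooth muscle and 6 of 7 mesothelial markers were higher in collagen-high spots, and 9 of 10 hepatocyte markers were lower. Of all genes 21.7% were higher and 22% lower. The summed stellate and fibroblast level was 1699 to 1878 CPM in collagen-high spots and 746.0 to 1023 in the other spots of the CCl4 sections. The summed level of the 7 mesothelial markers was 142 CPM in collagen-high and 102 in other spots of fibrotic replicate 1, 141 and 149.9 in fibrotic replicate 2, and 211 and 128 in the Hk2-deleted section; 3 of the 7, Lrrn4, Upk3b and Upk1b, were at 0 in the collagen-high spots of fibrotic replicate 2. The part of these cell types in the members' differences was not tested.

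The comparison with Hk2 deletion in Pdgfrb-expressing cells gave few calls in whole sections. Against the 2 fibrotic sections 1 of 36 members was higher in the Hk2-deleted section and 0 were lower, beside 0.142% of 14125 genes higher and 0.085% lower. At an unadjusted p below 0.05, 2 members were higher and 3 lower in the edgeR test, and DESeq2 called 0 in either direction, beside 0.0779% and 0.0708% of all genes. The called gene was Adam11, with 35.4 CPM against 16.7 and 21.2 (log2 0.90 ± 0.19, edgeR adjusted p 0.0427). This call ended with DESeq2 (adjusted p 0.589), with relative log expression scaling (0.0577) and without surface spots (0.108), while its size stayed between 0.74 and 1.09 over all settings run. Of all genes, 0.135% were higher and 0.0779% lower with that scaling, and 0.029% and 0% without surface spots. Leaving out either fibrotic section left no residual degree of freedom and hence no test. The Adam11 difference was 0.74 without fibrotic replicate 1 and 1.09 without fibrotic replicate 2.

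For the members that rose with CCl4, the Hk2-deleted section lay below both fibrotic sections in Adamts12 (9.18 against 16.7 and 11.4 CPM), Adam8 (6.93 against 9.97 and 10.3), Adamtsl2 (7.58 against 13.9 and 10.5) and Adamts4 (0.80 against 1.12 and 1.23). The log2 differences were -0.62 ± 0.24, -0.55 ± 0.24, -0.69 ± 0.24 and -0.55 ± 0.54, and none passed (adjusted p from 0.705 to 1). Without fibrotic replicate 1 these differences were -0.31, -0.57, -0.47 and -0.61, in the same order and with no test possible. For Adamts2, Adam12, Adamts5, Adamtsl1, Adamts7, Adamts9 and Adamts10 the Hk2-deleted section lay between the 2 fibrotic sections. Adamts15 was above both at 5.00 CPM, by 0.23 ± 0.31. With 1 deleted section these values bound no effect, and a p that misses the threshold does not show that the sections are alike.

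The difference between collagen-high and other spots was also compared between genotypes. The signed log2 difference was higher in the Hk2-deleted section for 1 of 37 members, Adamts2, and lower for 1, Adam23, which was further depleted in its collagen-high spots, beside 1.09% of 13954 genes higher and 0.165% lower. For Adamts2 the log2 ratio was 1.76 with Hk2 deleted against 1.16 and 1.29 without deletion, a difference of 0.56 ± 0.12 (adjusted p 0.0005). For Adam23 it was -1.46 against -0.56 and -0.47, a difference of -0.92 ± 0.20 (adjusted p 0.00122), with 11.1 CPM in the collagen-high spots of the Hk2-deleted section against 18.7 and 24.2 in those of the fibrotic sections.

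Neither call was made with DESeq2 (adjusted p 1 for both), with the top 20% of spots by collagen (0.219 and 0.216) or without surface spots (0.0998 and 0.481), while the sizes without surface spots were 0.52 and -0.77. Of all genes, 0.0215% were higher and 0.0143% lower with DESeq2, 0.449% and 0.0434% with the top 20%, and 0.152% and 0.0435% without surface spots. With spots ranked by other matrix genes the Adam23 call was lost at a log2 difference of -0.41 (adjusted p 0.634), Adamts2 was still called at a log2 difference of 0.54, and Adamts9 was added, beside 0.826% and 0.101% of all genes. Surface spots were 66.1% of the collagen-high spots of the Hk2-deleted section and 49.2% and 2.33% of those of the fibrotic sections. In the Hk2-deleted section 4 of 7 mesothelial and 6 of 12 stellate and fibroblast markers also had a larger collagen-high difference, beside 1.09% of all genes. The 3 collagens that defined the spots had larger differences there too, Col1a1 by 1.13, Col1a2 by 0.94 and Col3a1 by 0.64. The split itself was thus steeper in that section. The part of all these in the Adamts2 and Adam23 differences was not tested.

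The genes that act with these proteases were counted from 4 lists. Of the ADAMTS and ADAMTSL substrates and partners, 13 of 19 tested rose with CCl4 and 1 fell, beside 9.64% and 4.01% of all genes. The largest rises were in the microfibril genes Fbn2 (log2 5.96 ± 0.80) and Ltbp2 (5.17 ± 0.62) and the procollagen genes Col1a1 (4.79 ± 0.44) and Col1a2 (3.91 ± 0.44). In collagen-high spots 11 of 14 were higher and 3 lower, the 3 collagens that defined the spots left out. Of all genes 21.7% were higher and 22% lower, so that the share of lower ones was near that of all genes. Ltbp2 was at 2.47, the collagen cross-linking enzyme gene Lox at 2.32, Fbn2 at 2.18 and Col5a2 at 1.61. Col1a1, the substrate of Adamts2, thus rose more in fitted size than the 2.19 of Adamts2 itself; the difference between the genes was not tested.

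Of the tissue inhibitors of metalloproteases and their relatives, 2 of 5 tested rose with CCl4 and 0 fell, beside 9.64% and 4.01% of all genes. Timp1 was at 0.18 CPM in healthy, 1.52 and 0.88 in the fibrotic and 2.42 in the Hk2-deleted section (log2 2.76 ± 0.65, adjusted p 0.007), and Timp2 at 31.1 against 96.1, 79.5 and 85.8 CPM (1.495 ± 0.24, adjusted p 0.00025). Timp3, the tissue inhibitor known to act on ADAM17 and on ADAMTS4 and ADAMTS5, lay at 55.3 CPM in healthy and 63.5, 56.2 and 68.7 in the CCl4 sections and was not called (0.12 ± 0.21, adjusted p 0.771). In collagen-high spots Timp1 (2.27), Timp2 (1.40), Timp3 (0.85) and the membrane-anchored inhibitor gene Reck (0.80) were all called higher, 4 of 4 tested, beside 21.7% of all genes. With Hk2 deletion 3 of 5 inhibitors had a larger collagen-high difference, Timp1 by 1.79, Timp3 by 0.55 and Timp2 by 0.43, beside 1.09% of all genes; DESeq2 called 0 of the 5.

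The partners of ADAM10 and ADAM17, which bring them to the membrane or activate them, had few calls. With CCl4 edgeR called 1 of 12 higher, Rhbdf1, an adaptor of ADAM17 (0.77 ± 0.19, edgeR adjusted p 0.00993), and 0 lower, beside 9.64% and 4.01% of all genes. DESeq2 called 0 of the 12, and at an unadjusted p below 0.05 in edgeR 2 were higher and 2 lower. In collagen-high spots edgeR called 3 higher and 4 lower and DESeq2 2 and 2, beside 21.7% and 22% of all genes with edgeR and 14.1% and 16.8% with DESeq2, led by the ADAM10-binding tetraspanin gene Tspan5 (0.96) and the proprotein convertase gene Pcsk5 (-0.53). Of the ADAM substrates and released ligands 9 of 30 rose with CCl4, Ereg (2.28), Sema4d (1.78) and Cd44 (1.20) with the largest changes, and 1 fell, the epidermal growth factor receptor gene Egfr (-1.31); DESeq2 called 6 higher and 1 lower. In collagen-high spots edgeR called 11 of 30 higher and 7 lower and DESeq2 10 and 2, so that the share of lower ones was near the 22% of all genes with edgeR. Between the Hk2-deleted and fibrotic whole sections 0 genes of the 4 lists were called by edgeR or DESeq2, and 1, Timp1, had an unadjusted p below 0.05 (edgeR, 0.0473).

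The authors' deposited table gives a measure of spatial autocorrelation, the score Moran's I, per gene and section, in which 0 means no clustering of spots with like levels. In the authors' deposited table Adamts2 scored 0.033 in healthy, 0.069 and 0.058 in the fibrotic and 0.123 in the Hk2-deleted section, beside medians of 0.0022 to 0.0045 over all genes listed. Adamts5 scored -0.0079 in healthy and 0.055, 0.017 and 0.035, and Adamts10 scored 0.014 and 0.048, 0.042 and 0.056, in the same order in the authors' deposited table. Adam9 stayed between -0.010 and 0.012 there despite the most UMIs of all members. The score has no error of its own here and moves with a gene's depth, so its values are given as a description.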

How the data were processed

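The authors deposited UMI count matrices, made with Space Ranger 2.0.0 per the file headers, and on the build mm10 per the submitters' processing notes. The sources used here do not give the probe set. Deposited tables also hold a spatial score, Moran's I, per gene, and UMI counts that were equal to those of the matrices for all genes listed.

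Spots are not replicates, so counts were summed over a section, zone or spot class. With R 4.3.3, edgeR 4.0.16 was fitted to the whole table (TMM scaling, filterByExpr, quasi-likelihood test, Benjamini-Hochberg adjustment over all genes tested, threshold 0.05). Spot classes were fitted with section as a block. Residual degrees of freedom were 1 for whole sections, 3 for zones and 2 for collagen-high spots, with 2 and 1 for the zone and genotype interactions. Poisson intervals of 95% cover counting error only. The fits were tested on simulated data. DESeq2 1.42.0, other scalings, filters and spot classes were alternatives. Any member could be named, by role; other genes were named from the lists by size of change. The members and lists were chosen with earlier results of these data known. Genes' levels were not compared with each other. Sections are separate mice, so the spread behind p-values for spot classes is one between sections. The quasi-likelihood test draws each gene's spread toward a trend over all genes. With so few residual degrees of freedom, these p-values rest largely on that shared spread. For the genotype interaction the deleted side is 1 section. Images were not analysed here.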

Additional observations from a re-analysis of the deposited data

Results flagged for a closer look

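The difference between pericentral and periportal spots was not the same in the CCl4 sections as in the healthy section for 9 members, by an interaction term in edgeR's quasi-likelihood fit. On the log2 scale the CCl4 sections exceeded the healthy one by 2.69 in Adamts12, 1.92 in Adam33, 1.60 in Adam8 and 1.43 in Adamts2. The same difference was 1.02 in Adamts9, 1.02 in Adamts13, 0.76 in Adam19, 0.72 in Adamts10 and 0.42 in Adam10. The healthy side of each is 1 section. Without fibrotic replicate 1, Adam10 and Adam19 were at 0.33 and 0.70 and were not called.

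The difference between collagen-high and other spots was not the same with and without Hk2 deletion for 2 members, by the same kind of term. The signed log2 difference was higher by 0.56 in Adamts2 and changed by -0.92 in Adam23. The deleted side is 1 section.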

How the results depend on the processing

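The groups are of separate mice, so no pairing between groups was possible, while zones and spot classes were compared within sections. With DESeq2, relative log expression scaling or without surface spots, 0 members were higher with Hk2 deletion in place of 1. With a zone score from Cyp2e1 and Cyp2f2 alone, 3 members were higher pericentrally in place of 9, namely Adam12, Adamts15 and Adamts5. The periportal ones were then Adam23 and Adam33 in place of Adam23 and Adam11. The share of all genes called with that score is not given here, so the lower count cannot be read as particular to the members. Leaving out 1 section at a time gave 1 to 18 higher and 1 to 4 lower, beside 0.932% to 20.9% and 0.916% to 22% of all genes. The zone interaction with CCl4 had 4 members with DESeq2 in place of 9. For collagen-high spots of the periportal zone, added after seeing the data, 5 members were higher and 0 lower in place of 21 and 2, and Adamts13 and Adamts14 turned to -0.19 and -0.25 (adjusted p 0.917 and 0.952). The collagen-high difference with Hk2 deletion had 0 members higher and 0 lower with DESeq2, with the top 20% of spots and without surface spots, and 2 higher and 0 lower when spots were ranked by other matrix genes, in place of 1 and 1. The causes were not tested. Leaving out either fibrotic section left the whole-section and genotype contrasts without a residual degree of freedom, so those settings gave values with no test. Of 274 values that the alternatives gave for the 23 members called in collagen-high spots, 229 kept direction and call, 43 lost the call and 2 reversed. Members with few UMIs, such as Adamts8, Adamts17 and Adam5, could not be resolved at this depth.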
